A study of Homo sapiens with 8 samples.

Results

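Lysosomal cathepsins and legumain were examined in human endothelial cells made from WTC-TJP1, an established induced pluripotent stem cell line. The set consists of 10 protein-coding genes named by symbol, CTSA, CTSB, CTSC, CTSD, CTSH, CTSK, CTSL, CTSS, CTSZ and LGMN, among 30386 genes in the deposited table. All 10 were found, and all 10 passed the filter on low counts that left 15330 genes for testing. The series compared endothelial cells (iEC, 4 samples) with retinal endothelial cells (iREC, 4 samples), both from the WTC-TJP1 line and both at passage 1. The iREC are described as a matched differentiation, the labels give no agent, medium or day for either group, and the samples of each are lettered C to F. No label says whether the letters stand for separate differentiations, so every p-value and SD here measures the spread between these samples, which may be technical. The genes were taken by symbol, and the set was chosen by an earlier look at the same counts, with the differences between iREC and iEC known. Their own differences in that comparison are therefore given as a description. Whether a member was called in the fit over all genes is stated as part of that description, with no p-value, and nothing is supported by it.

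Lysosomes are acidic compartments in which proteins from endocytosis, autophagy and the secretory route are broken down. Cathepsins are the main proteases there and are made as inactive precursors that mature at low pH. Most are cysteine proteases, CTSD is an aspartic protease and CTSA a serine carboxypeptidase. LGMN, or legumain, is a cysteine protease of a separate family that cuts after asparagine and takes part in the maturation of several cathepsins. Precursors reach the lysosome on mannose 6-phosphate receptors, and the transcription factor TFEB and its relatives switch on many lysosomal genes. In endothelial cells, cathepsins are also secreted and have been tied to matrix turnover and vessel sprouting.

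The iEC libraries held 14877502 to 16971865 counts and the iREC libraries 13739364 to 15987839. Levels are given as CPM, the count scaled to the library total, and 3 counts, taken as the floor of detection, were 0.177 to 0.218 CPM. The endothelial markers PECAM1 (1927 to 2605 CPM in iEC, 493 to 855 in iREC) and CDH5 (1098 to 1642 and 517 to 983) were high in every sample. Of the 15330 genes, 3829, or 25.0%, had an adjusted p under 0.05 in edgeR's quasi-likelihood fit and are here termed called. In iREC 13.2% of the tested genes were called higher and 11.7% lower. Of 9 endothelial markers, 4 were called lower, PECAM1 and CDH5 among them (log2 fold change -1.57 and -0.76). TEK was the 1 called higher, at 33.5 to 84.0 CPM in iEC and 466 to 1118 in iREC. The other 4 were not called. TEK was named after its values were seen. iREC F stood apart in markers of other cell types. Its mesenchymal and mural markers summed to 4460 CPM, against 614 to 1242 in the other iREC samples, and its epithelial markers to 4924 against 302 to 1118. Because these are bulk samples, fewer cells of a type and less RNA per cell cannot be told apart.

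The 10 genes split by direction. LGMN and CTSD were higher in iREC, and CTSB, CTSL and CTSC were lower. CTSA, CTSZ, CTSK, CTSH and CTSS were not called. That is 2 members called higher, where 13.2% of all tested genes were, and 3 called lower, where 11.7% were. The samples of the groups did not overlap for 4 members (LGMN, CTSB, CTSC and CTSL), where 29.1% of all tested genes had no overlap. Nothing is read from these shares, since the genes were chosen with this comparison known. The median log2 fold change of the 10 was 0.02, the same as the 0.02 over all tested genes, and all 10 summed gave 1489 ± 326 CPM in iEC and 1169 ± 174 CPM in iREC (SD, n = 4), ranges that overlapped. The difference in the sum was not tested. How the mixture of the 10 differed is given below as a description.

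**Figure D1:**
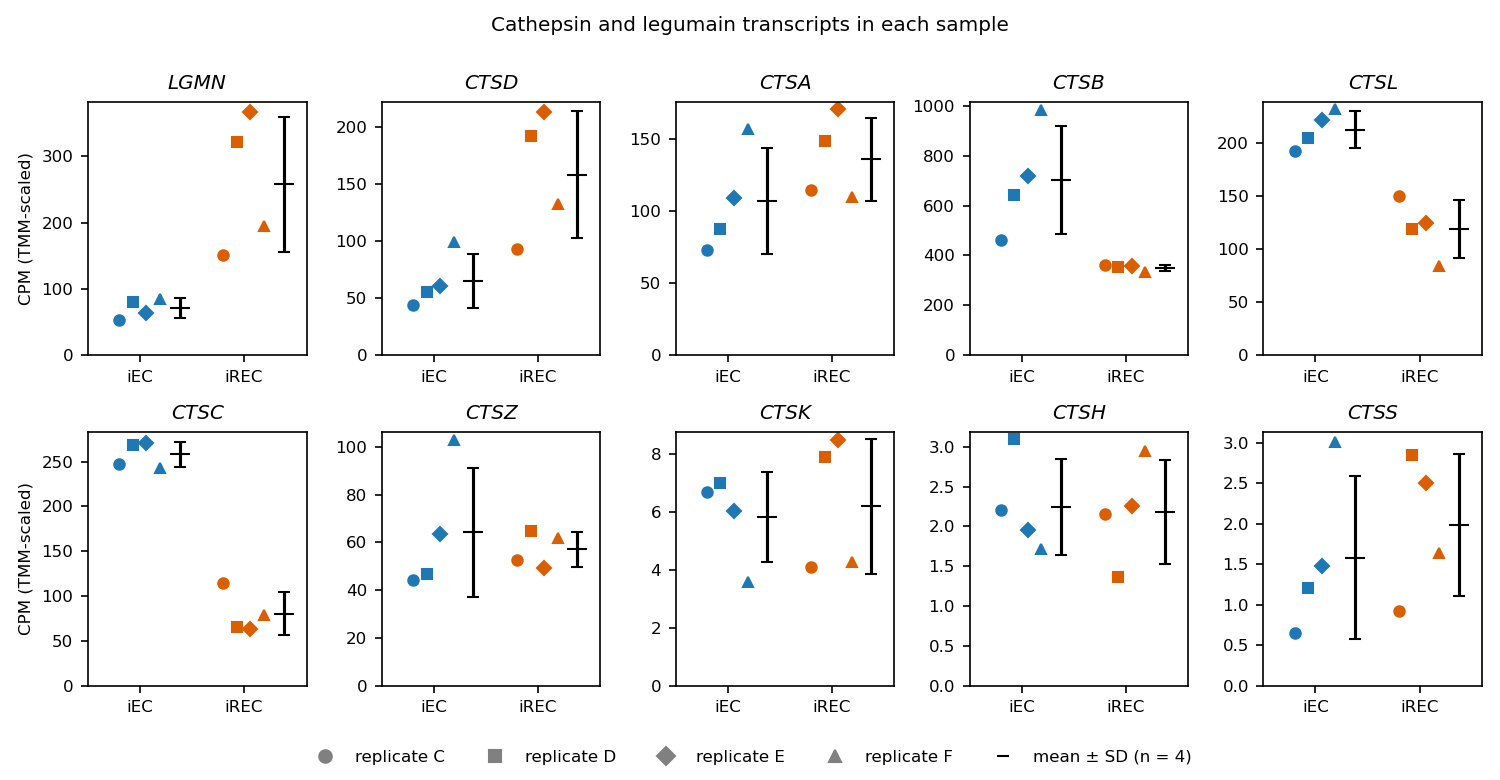
Level of each gene in each sample, in CPM (TMM-scaled, linear axis from 0), for 4 iEC and 4 iREC samples; symbols mark the replicate letter and the black bar is the mean ± SD. LGMN lies at 53.6 to 85.6 CPM in iEC and 151 to 367 in iREC, CTSC at 243 to 271 and 62.7 to 114, and CTSK, CTSH and CTSS stay under 9 CPM throughout.

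LGMN (ENSG00000100600, chromosome 14, 92703807 to 92748702, minus strand) had the largest positive difference. In iEC samples C, D, E and F it was at 53.6, 80.9, 63.2 and 85.6 CPM. The iREC samples, in the same order, were at 151, 321, 367 and 195 CPM. Every iREC sample lay above every iEC sample, and within iREC the samples D and E stood above C and F. The log2 fold change was 1.87 ± 0.29 (SE), or 3.65-fold, and it ran from 1.65 to 2.05 when 1 of the 8 samples was left out.

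CTSD (ENSG00000117984, chromosome 11, 1752752 to 1764573, minus strand) is the aspartic protease of the set and a major lysosomal endopeptidase. Its iEC levels in C, D, E and F were 44.3, 55.4, 60.5 and 99.1 CPM. Its iREC levels were 92.8, 192, 213 and 132 CPM. The groups overlapped, because iREC C lay just under iEC F, and again D and E were the highest of iREC. The log2 fold change was 1.28 ± 0.31 (SE), or 2.43-fold. The call was lost without iEC C (edgeR log2 fold change 1.12) and without iEC E (1.24). CTSD shares 41.7% of its exon bases with AC068580.4 on the same strand, a locus that had 0.237 and 0.857 mean CPM in iEC and iREC. How the counting treated reads of these shared bases is not given in the sources used here. The level of CTSD, and its shares and ratios below, are uncertain to that extent.

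CTSA (ENSG00000064601, chromosome 20, 45890144 to 45898820, plus strand) encodes the carboxypeptidase that also shields the lysosomal enzymes beta-galactosidase and neuraminidase from degradation. It was at 73.4, 87.6, 109 and 157 CPM in iEC C, D, E and F and at 115, 149, 171 and 110 CPM in the iREC samples in that order. The groups overlapped, and iEC F was higher than 3 of the 4 iREC samples. The log2 fold change of 0.35 ± 0.24 (SE) was not called, and an interval of 2 SE on each side ran from -0.14 to 0.84. It was 0.19 without iEC C and 0.59 without iEC F. PLTP, on the opposite strand, shares 200 exon bases with CTSA and rose from 7.1 to 121 CPM (edgeR log2 fold change 4.09, adjusted p 2.14e-05). Whether counting used the strand is not given in the sources used here, so the reads of the shared bases cannot be assigned to either gene with certainty.

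TFEB binds the letters CACGTG inside a longer lysosomal promoter element. Start-site windows of 300 bases (250 before and 50 after the RefSeq start, GRCh38.p14) were at hand for 6 of the 10 genes, CTSA, CTSC, CTSD, CTSH, CTSL and CTSZ. CTSB, CTSK, CTSS and LGMN are named only. CACGTG, which reads the same on both strands, occurred in 2 of the 6 windows, once in CTSD and 2 times in CTSA, and in 7.26% of all 35116 windows of that length. The GC box letters GGGCGG, searched on both strands (CCGCCC on the other), occurred in all 6 and in 45.0% of all windows. The stretches of 30 bases shown here hold the CACGTG of CTSD and CTSA, and the same length around a GC box in CTSC and CTSL. The windows of CTSH and CTSZ, neither of them called, also lacked CACGTG. Capitals mark CACGTG or the GC box, and each run is read along the gene's strand.
CTSD, chr11:1763958-1763987, minus strand: cgccggccgcgccCACGTGaccggtccggg
CTSA, chr20:45891289-45891318, plus strand: ctgtCACGTGgcgccggagttCACGTGact
CTSC, chr11:88337775-88337804, minus strand: cagtgaccCCGCCCacgggtttccgggccg
CTSL, chr9:87726051-87726080, plus strand: ggcggcgGGGCGGtgccggccgaacccaga
CTSD and CTSA carry the letters, but only CTSD was called. A match describes the letters in the window and does not show binding, and the part of TFEB was not tested.

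Of the cysteine cathepsins, CTSC (ENSG00000109861, chromosome 11, 88293592 to 88337787, minus strand) had the largest difference. CTSC is a dipeptidyl peptidase that activates the granule serine proteases of myeloid and lymphoid cells. It was at 247, 269, 271 and 243 CPM in iEC C, D, E and F and at 114, 65.8, 62.7 and 79.1 CPM in the iREC samples in that order. The groups did not overlap, the iEC samples spanned only 1.11-fold, and iREC C was the highest of its group. The log2 fold change was -1.68 ± 0.19 (SE), which makes iEC 3.2-fold higher.

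CTSB (ENSG00000164733, chromosome 8, 11842524 to 11869448, minus strand), an abundant cathepsin with both endopeptidase and exopeptidase activity, had the highest CPM of the set in both groups. It was at 463, 643, 720 and 984 CPM in iEC C, D, E and F, and at 360, 353, 357 and 332 CPM in the iREC samples. The iEC samples spanned 2.12-fold and the iREC samples 1.08-fold, so the spread lay almost wholly in iEC. No iREC sample reached the lowest iEC sample. The log2 fold change was -1.0 ± 0.21 (SE), a 2.0-fold higher level in iEC.

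CTSL (ENSG00000135047, chromosome 9, 87725519 to 87731393, plus strand) is a strong endopeptidase that degrades matrix and endocytosed protein. Its iEC levels in C, D, E and F were 193, 205, 222 and 232 CPM, and its iREC levels 150, 119, 125 and 84.3 CPM. The groups did not overlap, and the lowest value was in iREC F, the sample with the highest mesenchymal and epithelial markers. The log2 fold change was -0.83 ± 0.17 (SE), and without iREC F it was -0.70.

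The other cysteine cathepsins overlapped between the groups. CTSZ (ENSG00000101160, chromosome 20, 58995185 to 59007247), a carboxypeptidase, was at 44.1, 46.7, 63.7 and 103 CPM in iEC and at 52.7, 64.7, 49.3 and 61.8 CPM in iREC, in letter order (log2 fold change -0.17 ± 0.26, SE). The 103 CPM in iEC F was well above the 44.1 to 63.7 of the other iEC samples, and without that sample the log2 fold change was 0.14. CTSK (ENSG00000143387, chromosome 1, 150796208 to 150808323), the collagen-degrading cathepsin of osteoclasts, was at 6.70, 7.02, 6.04 and 3.58 CPM in iEC and at 4.12, 7.92, 8.49 and 4.26 CPM in iREC (log2 fold change 0.09 ± 0.33, SE). Its lowest value was in iEC F, where CTSZ was highest. CTSS (ENSG00000163131, chromosome 1, 150730196 to 150765957), which trims the MHC class II invariant chain in antigen-presenting cells, had 10, 19, 25 and 42 counts in iEC and 14, 40, 41 and 25 in iREC (log2 fold change 0.32 ± 0.52, SE), and the log2 fold change was 0.0484 without iEC C and 0.82 without iEC F. CTSH (ENSG00000103811, chromosome 15, 78921058 to 78949574), an aminopeptidase, had 34, 49, 33 and 24 counts in iEC and 33, 19, 37 and 45 in iREC (log2 fold change -0.04 ± 0.33, SE). Both genes stayed between 0.65 and 3.10 CPM in all 8 samples. Intervals of 2 SE on each side ran from -0.71 to 1.36 for CTSS, from -0.58 to 0.75 for CTSK and from -0.70 to 0.62 for CTSH, so the spread between these samples allows differences of either sign.

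CTSC, CTSS and LGMN are high in macrophages, and CTSK in osteoclasts and fibroblasts, so markers of those cells were read beside them. Of 12 myeloid markers, 10 are listed and only 2 passed the filter. CD14, LYZ, SPI1 and TYROBP were at or under 3 counts in every sample, and CSF1R did not exceed 15 counts. The sum of the list was 15.5 to 33.8 CPM in iEC and 4.65 to 10.6 in iREC. Nearly all of the iEC sum was FCER1G, an adaptor of immune receptors, which fell from 26.1 ± 8.64 CPM in iEC to 4.27 ± 2.01 CPM in iREC (SD, n = 4; adjusted p 0.00139 by edgeR). PTPRC, the leukocyte marker CD45, had no count in iEC (0 in each of 4 samples) and 13 to 42 counts in iREC. It was at least 8.46-fold higher against a floor of 3 counts per library. FCER1G lies outside the naming rule and was chosen after its values were seen.

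Mesenchymal and mural markers summed to 234 to 488 CPM in iEC and 614 to 4460 CPM in iREC, with 3 of 9 tested members called, 2 higher and 1 lower. TAGLN was higher without overlap, at 25.4 to 58.2 CPM in iEC and 318 to 870 in iREC (edgeR adjusted p 0.000147). LUM was also higher, at 0.19 to 7.16 and 1.96 to 429 CPM. RGS5 was lower, at 60.8 to 161 and 29.2 to 70.5 CPM. TAGLN, LUM and RGS5 were named after their values were seen. COL3A1 was at 3.71 to 122 CPM in iEC and 32.5 to 1641 in iREC, and PDGFRB at 2.15 to 17.6 and 4.71 to 127. COL1A1 had means of 38.1 ± 42.0 and 163 ± 193 CPM (SD, n = 4). COL3A1, PDGFRB and COL1A1 were not called. COL3A1 was called with DESeq2 (adjusted p 0.0302), and without iEC F both COL3A1 and COL1A1 were (edgeR adjusted p 0.0422 and 0.0355). Without iREC F their log2 fold changes dropped from 3.64 to 1.63 for COL3A1, from 2.10 to 0.84 for COL1A1 and from 2.45 to 0.85 for PDGFRB. CTSK was at 4.26 CPM in iREC F, where these markers peaked, and at 7.92 and 8.49 CPM in iREC D and E. Osteoclast markers summed to at most 23.4 CPM in any sample. Epithelial markers summed to 391 to 1174 CPM in iEC and 302 to 4924 in iREC, and markers of retinal pigment epithelium and melanocytes to 1.90 to 2.67 and 17.7 to 75.2 CPM. Nearly all of the latter was TTR, a secreted carrier protein that other tissues make too, at 15.0 to 73.0 CPM in iREC and at or under 3 counts in each iEC sample. The more specific RPE65 and TYR did not exceed 6 counts and RLBP1 not 1 count in any sample, and PMEL was at 0.716 to 1.11 CPM in iEC and 0.262 to 0.785 in iREC. BEST1 was higher without overlap, at 0.474 to 0.715 CPM in iEC and 0.916 to 3.85 in iREC (edgeR adjusted p 0.0222). MLANA was at 0.316 to 1.07 and 0.721 to 1.86 CPM and was not called. TTR and BEST1 were thus the 2 of 4 tested genes of that list called higher, where 13.2% of all tested genes were. Both passed the low-count filter through iREC, so nothing is read from that count. TTR, RPE65, TYR, RLBP1, PMEL, BEST1 and MLANA were named after their values were seen. Without iREC F, 5 members were called in the same directions, which is a description only. The mesenchymal and mural sums of iREC C, D and E, at 614 to 1242 CPM, still lay above that of every iEC sample. The part of other cells in the differences was not tested.

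Per length, the leading genes of the set were not the same in the groups. In the deposited FPKM (normalized counts scaled by gene length and library size), CTSB at 94.3 ± 31.2 and CTSL at 89.4 ± 9.17 led in iEC (SD, n = 4), and they did not differ beyond their spread. CTSZ (31.5 ± 14.1), CTSC (22.4 ± 1.06), CTSD (20.7 ± 8.17), CTSA (18.2 ± 6.73) and LGMN (18.1 ± 4.11) followed, each with a range that overlapped that of the next. CTSK at 3.05 ± 0.766 lay clearly under these, and CTSH and CTSS at 0.377 and 0.376 lay under CTSK. In iREC, LGMN was at 65.0 ± 25.4 FPKM, CTSL at 49.6 ± 11.1, CTSD at 49.5 ± 17.1 and CTSB at 46.3 ± 1.40, with ranges that overlapped from each to the next. CTSZ (27.5 ± 3.60) and CTSA (22.8 ± 4.69) came next, then CTSC at 6.93 ± 2.04, CTSK at 3.22 ± 1.19, CTSS at 0.459 and CTSH at 0.364.

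As a share of the summed FPKM of the 10 genes, LGMN went from 6.11% ± 0.942 in iEC to 23.3% ± 5.60 in iREC and CTSD from 6.77% ± 0.973 to 17.8% ± 3.75 (SD, n = 4). CTSB went from 31.1% ± 3.08 to 17.4% ± 2.81, CTSL from 30.7% ± 3.99 to 18.6% ± 5.36 and CTSC from 7.79% ± 1.63 to 2.68% ± 1.16. The share of CTSZ was 10.2% in iEC and 10.4% in iREC. A ratio within a sample does not depend on library scaling, but the shares and the ratios between genes depend on the gene lengths used. LGMN over CTSC, in FPKM, was 0.636, 0.881, 0.683 and 1.03 in iEC C, D, E and F and 3.86, 14.3, 17.2 and 7.20 in the iREC samples. CTSD over CTSB was 0.20 to 0.239 in iEC and 0.613 to 1.42 in iREC, and CTSD over CTSL 0.174 to 0.323 and 0.468 to 1.29. In each ratio iREC C lay nearest to iEC.

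**Figure D2:**
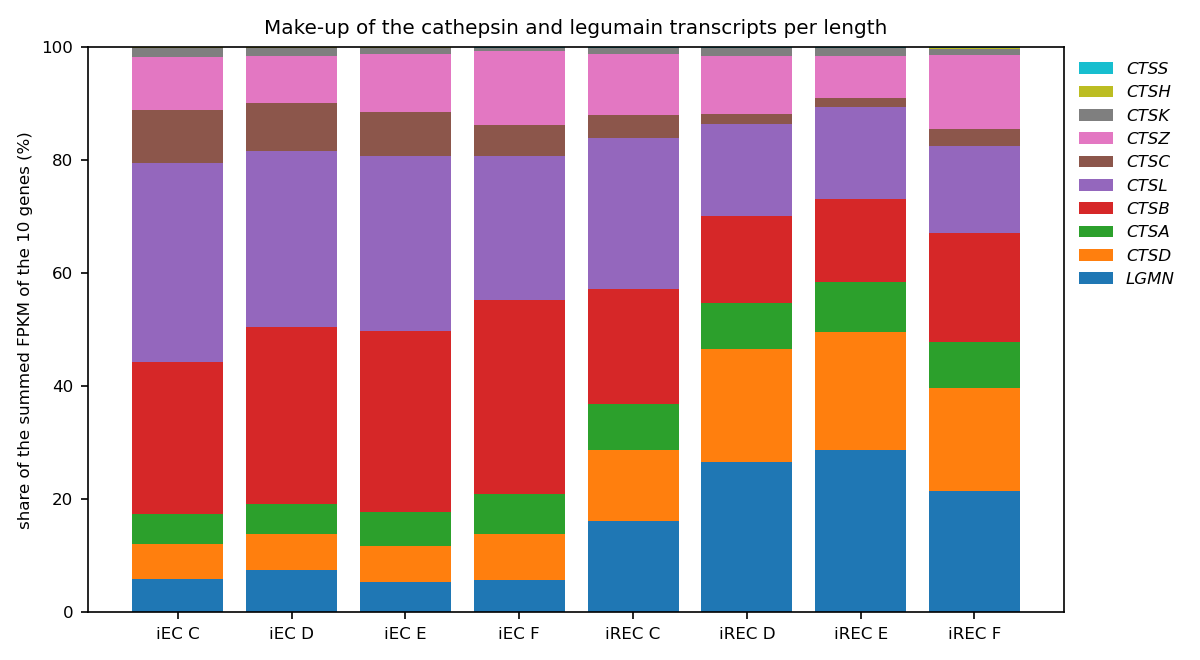
Share of each gene in the summed FPKM of the 10 genes, in percent, for each of the 8 samples (stacked bars from 0). LGMN and CTSD, at the bottom, make up 16.2% to 28.8% and 12.5% to 20.8% in the iREC samples, against 5.34% to 7.48% and 6.11% to 8.22% in the iEC samples.

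The order, the shares and the size of the ratios between genes depend on the length used. The deposited lengths equal the merged exons of all transcripts for each of the 10 genes, which gives CTSC 11421 bases and CTSB 7428, where the median coding transcript is 1921 and 2009 bases. Per kilobase of that median length, CTSB led in both groups, at 350 CPM per kilobase in iEC and 174 in iREC, and LGMN was the second in iREC at 134. LGMN then had the highest level in 1 of 4 iREC samples, E, against 3 of 4 by FPKM. CTSC was the third in iEC, at 134 CPM per kilobase, and was at 41.9 in iREC. CTSD was at 34.4 in iEC and 83.5 in iREC, under CTSB in both groups. Differences of one gene between the groups do not change with the length.

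The samples of one group varied together across several of the genes. In iEC, 7 of the 10 genes (CTSB, CTSL, CTSS, CTSZ, CTSD, CTSA and LGMN) were lowest in sample C and highest in sample F, a pair of libraries picked out after the values were seen. CTSC spanned only 1.11-fold, while CTSK and CTSH were lowest in F. Of all tested genes, 13.2% were lowest in C and highest in F, and of 98 other tested lysosomal genes, 46, or 46.9%. The median log2 difference of F over C was 0.88 over the 10 genes, 0.56 over the 98 and -0.03 over all tested genes. Among the lists, it was 0.67 over 39 hydrolases and activators, 0.61 over 18 vacuolar ATPase subunits, 0.44 over 15 membrane proteins, 0.42 over 8 tagging and sorting genes, 0.81 over 6 inhibitors, 0.69 over 4 MiT/TFE factors and 0.41 over 5 MHC class II genes. The 3 tested cathepsins outside the set differed from these, with a median of 0.0, a range of -3.50 to 1.16 and 1 of 3 higher in F. With scaling by library size only, 5 of the 10 genes, 37.8% of the 98 and 9.73% of all genes were lowest in C and highest in F. Mesenchymal and epithelial markers were also highest in iEC F, at 488 and 1174 CPM against up to 279 and 674, and their part was not tested.

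In iREC the pattern was another. LGMN, CTSD and CTSK were lowest in C and highest in E. So were 7.44% of all tested genes and 9.18% of the 98 other lysosomal genes. CTSA was highest in E as well. CTSB scarcely moved among iREC samples, with log2 deviations from the group mean of -0.08 to 0.04. CTSC and CTSL were highest in iREC C, the sample where LGMN and CTSD were lowest.

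**Figure D3:**
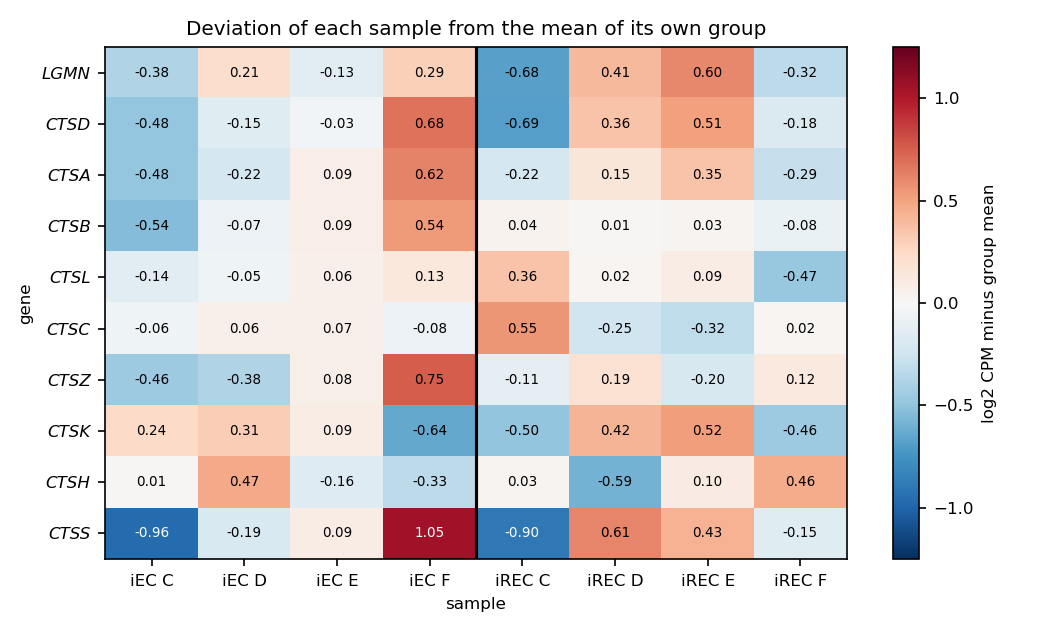
Log2 CPM of each gene in each sample minus the mean of its own group (colour and printed value, red above and blue below), 4 iEC samples on the left and 4 iREC samples on the right. iEC C and F stand at opposite ends for most genes (CTSD -0.48 and 0.68, CTSZ -0.46 and 0.75), and in iREC the values of LGMN run from -0.68 in C to 0.60 in E.

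Other genes of the lysosome came from 9 lists written from knowledge of the pathway and not for how their genes moved, though earlier results were known. They hold 128 genes in all. Of these, 98 were tested, 17 were called higher and 12 lower in iREC, or 29.6% called where 25.0% of all tested genes were. Their median log2 fold change was 0.09. Without iEC E, 11 were called higher.

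The remaining lysosomal and related cathepsins had 3 tested members and all 3 rose, where 13.2% of all tested genes were called higher. CTSW and NAPSA, low in both groups, did not pass the filter. CTSO, a cysteine protease, rose from 7.10 ± 2.23 CPM in iEC to 18.0 ± 4.86 CPM in iREC (SD, n = 4). Its log2 fold change was 1.34 ± 0.29 (SE), with an adjusted p of 0.00935 by edgeR. CTSV, a close relative of CTSL, was at 0.0716 to 2.15 CPM in iEC and 6.81 to 10.6 CPM in iREC (edgeR adjusted p 0.0103). CTSG, a granule serine protease that CTSC activates, had 0, 4, 0 and 0 counts in iEC C, D, E and F and 276, 132, 171 and 30 in iREC (edgeR adjusted p 0.00119). CTSV and CTSG fall outside the naming rule and were named after their values were seen. Both passed the low-count filter through iREC, the group where they were high. The filter thus favoured a rise, and nothing is read from all tested members rising. CTSV and CTSL have similar sequences, so reads could have been split between them. The other listed proteases that CTSC activates, GZMA, GZMB, PRSS57 and CMA1, did not pass the filter, with a sum of at most 0.787 CPM in any sample. CTSC itself was lower in iREC, where CTSG was higher, and iREC C was the highest of its group in both.

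Of 6 tested inhibitors of cathepsins and related serpins, 4 fell and 1 rose. Of all tested genes, 11.7% were called lower and 13.2% higher. CSTB, the cystatin of the cytosol, fell from 251 ± 66.5 to 141 ± 31.5 CPM, a log2 fold change of -0.83 ± 0.21 (SE) with an adjusted p of 0.0202 by edgeR, a call lost without iREC D and without iREC E. CST3, the main secreted cystatin, was at 102 ± 45.5 and 103 ± 12.5 CPM (SD, n = 4) and was not called. SERPINB1 fell from 80.9 ± 40.3 to 31.9 ± 3.93 CPM and SERPINB6 rose from 152 ± 38.5 to 287 ± 64.0 CPM (adjusted p 0.00983 and 0.0150 by edgeR), with the second call lost without iEC E. SERPINB3 and SERPINB4, near-identical copies of each other, were the remaining calls, both lower, and their counts are uncertain. Both passed the low-count filter through iEC, the group where they were high. For these genes the filter favoured a fall, and nothing is read from the count of inhibitors that fell. They too lie outside the naming rule and were named after their values were seen.

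Among the 4 transcription factors of the MiT/TFE family, TFEB was called. It was at 0.910, 1.96, 1.66 and 2.08 CPM in iEC C, D, E and F and at 13.2, 14.1, 17.8 and 8.25 CPM in iREC, a log2 fold change of 3.01 ± 0.34 (SE) with an adjusted p of 0.000330 by edgeR. TFE3 was far more abundant, 118 ± 31.9 CPM in iEC and 85.5 ± 10.4 in iREC, and was not called, nor was MITF at 3.40 ± 0.839 and 4.38 ± 2.60 CPM. Of the sorting machinery, 2 of 8 genes were called, in opposite directions. M6PR, the small mannose 6-phosphate receptor, rose from 90.1 ± 6.96 to 143 ± 14.2 CPM (edgeR adjusted p 0.00270). IGF2R, the large one, fell from 467 ± 93.9 to 251 ± 91.7 CPM (edgeR adjusted p 0.0286), a call that was lost when any 1 of iEC C, D or F or iREC C, D or E was dropped.

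Of 15 tested lysosomal membrane proteins, 1 was called higher and 3 lower, with a median log2 fold change of -0.06. LAMP1 was at 455 ± 165 and 433 ± 22.9 CPM and LAMP2 at 169 ± 21.2 and 192 ± 11.6 CPM in iEC and iREC, neither called. LAPTM4B rose from 166 ± 48.3 to 462 ± 31.8 CPM (edgeR adjusted p 0.000786). NPC1, the cholesterol exporter, fell from 83.7 ± 10.1 to 28.8 ± 5.59 CPM, LAPTM5 from 113 ± 10.3 to 43.6 ± 14.1 CPM and ATP13A2 from 129 ± 17.5 to 68.8 ± 10.7 CPM (edgeR adjusted p 0.000241, 0.00186 and 0.00220). Among 39 tested hydrolases and activators, 8 rose and 2 fell, or 25.6% called. PRCP, a carboxypeptidase, rose from 126 ± 57.5 to 637 ± 211 CPM and ARSB, a sulfatase, from 52.1 ± 11.8 to 130 ± 15.0 CPM (adjusted p 0.00234 and 0.000670 by edgeR). ASAH1, acid ceramidase, rose from 114 ± 34.1 to 226 ± 66.9 CPM (edgeR adjusted p 0.0269), a call lost without iEC C, D or E or iREC D or E. GALC had the same rounded log2 fold change of 0.98, and the rule took ASAH1 by list order. It rose from 50.8 ± 6.83 to 100 ± 20.2 CPM without overlap (edgeR adjusted p 0.00315). GALC was named after its values were seen. IDS, a sulfatase, fell from 110 ± 18.9 to 40.4 ± 9.12 CPM and HYAL2 from 218 ± 37.3 to 126 ± 25.8 CPM (adjusted p 0.000700 and 0.0120 by edgeR).

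The vacuolar ATPase, the pump that acidifies the lysosome, had 2 of 18 tested subunits called, both lower, or 11.1%. ATP6V1B2 fell from 194 ± 26.7 to 132 ± 14.5 CPM and ATP6V0E2 from 44.2 ± 11.2 to 25.0 ± 4.46 CPM (adjusted p 0.0143 and 0.0174 by edgeR), with the second call lost without iEC E, iREC D or iREC E. Of 5 tested genes of the MHC class II pathway, in which CTSS acts, HLA-DMA and CIITA were called higher, both under 4 CPM in every sample. HLA-DMA did not exceed 4 counts in iEC and passed the low-count filter through iREC. CD74, the invariant chain that CTSS trims, was at 0.316 to 1.65 CPM in iEC and 0.523 to 11.9 CPM in iREC and was not called (edgeR adjusted p 0.142). These 3 genes were named after their values were seen.

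**Figure D4:**
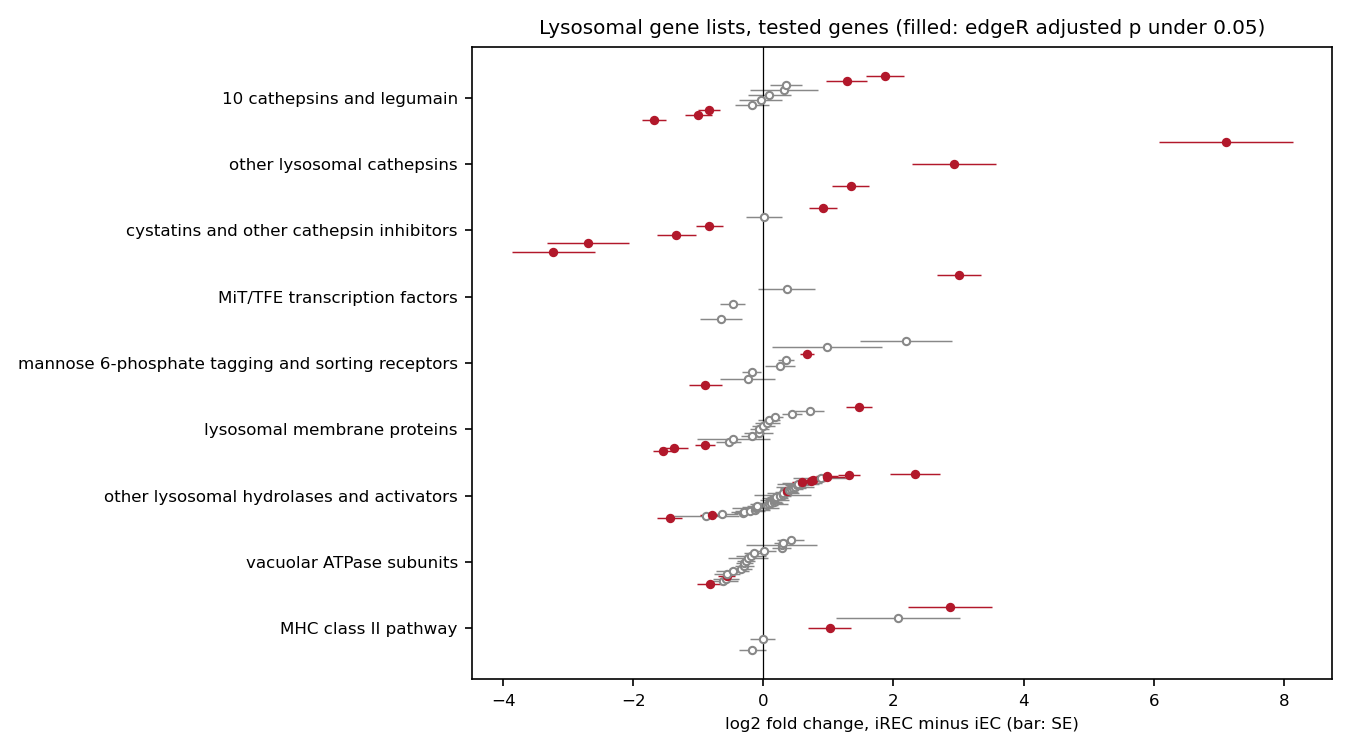
Log2 fold change of iREC over iEC with its SE for each tested gene of the 10 cathepsins and legumain and of 8 lysosomal lists; filled red points have an edgeR adjusted p under 0.05 over all tested genes and grey open points do not. The 10 genes run from -1.68 (CTSC) to 1.87 (LGMN), while the hydrolases and activators have a median of 0.26 and the vacuolar ATPase subunits one of -0.28.

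By Pearson correlation of log2 CPM over the 8 samples, the genes most like LGMN were DGLUCY (0.989) and SAMD12 (0.988), and those most like CTSD were KHNYN (0.993) and VSIG10L (0.987). For CTSC they were ARNTL2 (0.990) and HOPX (0.990), and for CTSB RABIF (0.994) and FNDC4 (0.987). The 8 points fall into 2 groups and share their libraries, so these values describe likeness of pattern only.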

How the data were processed

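Poly-A RNA was sequenced in 8 samples, per the labels' protocols, with a dUTP second strand. The submitters' processing notes name fastp, HISAT2 2.0.5 and build hg38; the counting program is not given in the sources used here. The authors deposited a single table. Its columns are raw counts (whole numbers) and FPKM, per the file headers. The deposited normalized signal is the count divided by 1 factor per sample, and the FPKM scales it by gene length and 15383181, a library size shared by all samples. Which test gave the deposited log2 fold changes and p-values is not given in the sources used here, and they served only as a check: for the 10 genes the log2 fold changes in the authors' deposited table lay within 0.028 of those computed here. Gene positions matched GENCODE 29 (GRCh38) for all 10.

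From the counts, genes were kept by filterByExpr (edgeR 4.0.16), scaled by TMM and compared by edgeR's quasi-likelihood test with group as the only term, adjusted by Benjamini-Hochberg over 15330 genes, threshold 0.05. CPM are TMM-scaled, with a prior count of 2 on the log2 scale. Standard errors come from the coefficient and the F statistic. The test was checked on simulated counts. The 10 genes and the lists were chosen with earlier results of these data known. Named from each list were up to 3 called genes per direction with at least 10 CPM in a group, plus genes named beforehand. Alternatives were DESeq2 1.42.0 and its size factors, upper quartile or no scaling factor, no filter, a stricter filter, limma-voom (limma 3.58.1), the replicate letter as a block, and each sample left out. Same-letter samples correlated by -0.0794 to 0.25 in their deviations from the group means, so the letters were not taken as pairs.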

Additional observations from a re-analysis of the deposited data

Results flagged for a closer look

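Within each group of 4 samples, the highest and the lowest value were compared with the rest, over 136 groups of values, and 9 had a sample whose gap to its nearest neighbour, as a share of the group's range, exceeded Dixon's critical value. Chance gives about 1 such group in 20. Of 28 groups of values of the cathepsins and legumain (levels, their sum and 3 ratios), 1 was among them. The ratio of CTSD to CTSL in FPKM was 0.468 in iREC C, against 1.19 to 1.29 in the other iREC samples.

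The remaining 8 came from 108 groups of list values, and 5 of them were in iREC F. In that sample the summed mesenchymal and mural markers were at 4460 CPM against 614 to 1242, COL3A1 at 1641 CPM against 32.5 to 254 and CD74 at 11.9 CPM against 0.523 to 1.78. PECAM1 was low there, at 493 CPM against 815 to 855, as was ARSB, at 107 CPM against 137 to 138. COL1A1 was at 101 CPM in iEC F, against 11.4 to 23.5 in the other iEC samples. ATP13A2 was at 84.7 CPM in iREC C, against 62.2 to 65.6. CTSG was at 0.253 CPM, or 4 counts, in iEC D and had 0 counts in the other iEC samples.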

How the results depend on the processing

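Over all alternatives, log2 fold changes ran from 1.65 to 2.05 for LGMN, 1.10 to 1.56 for CTSD, -1.18 to -0.80 for CTSB, -0.97 to -0.70 for CTSL and -1.90 to -1.57 for CTSC, given as a description since these genes were chosen with the comparison known. The count of members called higher ran from 1 to 2 over the fits that each left out 1 sample. That of other lysosomal genes called higher ran from 11 to 24 over those fits, with 11 without iEC E. Over those fits, signs changed for 6 uncalled genes among the members and the genes named by the rule. The log2 fold change of CTSH ran from -0.22 to 0.15, of CTSK from -0.10 to 0.24, of CTSZ from -0.33 to 0.14, of CST3 from -0.18 to 0.32, of MITF from -0.0794 to 0.64 and of LAMP1 from -0.23 to 0.20. CST3 was also at -0.0166 with no filter. The cause was not tested. With the replicate letter as a block, 3334 genes were called against 3829, with 2 members higher and 3 lower as before; the letters are not known to pair the samples, and 2 of 4 iEC samples correlated best with their own letter. Among the 10 members and the genes named by the rule, the block ended the calls of CSTB (edgeR adjusted p 0.0626) and CDH5 (0.0803). It gave calls for COL3A1 (0.00536), COL1A1 (0.0194) and PDGFRB (0.0293), and it changed no other call among them. Genes named after their values were seen were not followed over the alternatives. Chosen after the data were seen, the median coding transcript length put LGMN first in 1 of 4 iREC samples, against 3. CTSS and CTSH had 10 to 49 counts per sample and were not tested under the stricter filter.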
